A study of Arabidopsis thaliana with 8 samples.

Results

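Vegetative shoot apices of the ago1-27 mutant of Arabidopsis thaliana were compared with those of the wild-type accession Col-0. The comparison rests on 4 of the 8 arrays of the series, 2 for ago1-27 and 2 for Col-0, taken by their genotype labels. The allele ago1-27 is a weak, partial loss-of-function allele of ARGONAUTE1 (AGO1), and no other ago1 allele was measured. All plants had grown for 20 days in short days, a condition in which Arabidopsis stays vegetative for long. The other 4 arrays hold apices of se-1, a partial loss-of-function allele of SERRATE (SE), and of se-1 p35S::MIR156, which adds a transgene that makes a microRNA (miR156) precursor from the viral 35S promoter. Total RNA of each sample was amplified, labelled with biotin and hybridized to 1 Affymetrix ATH1 array, on which a set of probes (a probe set) reports 1 transcript or a few related ones. The labels do not say whether the 2 samples of a genotype came from separate plants or how many apices each holds. Each p-value rests on the spread between same-genotype arrays, pooled over the 4 genotypes and drawn toward that of probe sets of similar signal. This spread may be technical.

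AGO1 is the protein that binds microRNAs and other small RNAs and, with them, cleaves or represses matching messenger RNAs. SE acts a step earlier, in the cutting of microRNA precursors. In shoot apices the microRNA targets include transcription factors that set leaf polarity, the change from juvenile to adult leaves and flowering, so a partial loss of AGO1 is known to give serrated or narrow leaves and altered timing of these stages. A transcript that is cut by AGO1 can accumulate when AGO1 is weak, and transcripts further down the pathway can move either way. The comparison asks which transcripts in the apex depend on AGO1.

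Signals are on a linear scale on which each array has the same 2% trimmed mean of about 200.02 over all probe sets. Array medians lay between 76.6 and 82.4. The background of an array was taken as the highest signal among its control probe sets for bacterial transcripts, which plants do not make. It lay between 14.2 and 34.1, and between 65.1% and 74.2% of probe sets were above it. The ratio of 3' to 5' signal of an actin control, a measure of RNA quality, was 4.83 and 4.40 on the ago1-27 arrays, 3.91 and 2.81 in Col-0 and 2.97 to 4.22 on the other 4 arrays. A second actin control gave 30.3 and 17.4 in ago1-27 and 32.3 and 19.0 in Col-0, with overlapping arrays. The GAPDH control gave 1.55 and 1.41 in ago1-27 against 1.40 and 1.21 in Col-0, and the ubiquitin control 1.78 and 1.503 against 1.48 and 1.32, so 3 of the 4 ratios were higher on both ago1-27 arrays than on both Col-0 arrays. The part of RNA quality in the results below was not tested. On the log2(signal + 16) scale, ago1-27 replicate 1 correlated across probe sets slightly more with the Col-0 arrays (Pearson's r of 0.975 with each) than with ago1-27 replicate 2 (0.972), and replicate 2 had r between 0.959 and 0.967 with the arrays of other genotypes. These correlations are across probe sets of the same chips, which are not independent replicates. What happens to the calls when an array is left out is given below, for some genes by name and for the others by counts.

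AGO1 itself was not analysed here, because no probe set is paired with it in the annotation used. SE, whose product works with AGO1 in the same pathway, gave signals of 128 and 135 in Col-0 and 140 and 169 in ago1-27, with a log2 change of 0.20 (standard error of the fit 0.195, limma adjusted p = 0.735). The tissue label could be checked only in part. Of 14 meristem and boundary genes listed, 2 had a probe set paired with 1 gene: CLV3, the stem cell peptide gene, was within background on all 4 arrays, and LAS, a boundary gene, gave 29.4 and 41.2 in Col-0 and 39.7 and 49.1 in ago1-27. The light-harvesting gene LHCB4.1, of green tissue, was bright on all 4 arrays, at 4557 and 4568 in Col-0 and 4794 and 5673 in ago1-27.

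Across 15922 probe sets tested, 265 (1.66%) differed between ago1-27 and Col-0 at a Benjamini-Hochberg adjusted p under 0.05 in limma, which is what "called", "rose" and "fell" mean here. Of these, 120 (0.754%) were higher and 145 (0.911%) lower in ago1-27. A change of at least 2-fold was found for 202 of the calls and of at least 4-fold for 19. In every called probe set the 2 ago1-27 arrays lay apart from the 2 Col-0 arrays, but so did 40.8% of all tested probe sets. In 231 of the 265 both ago1-27 arrays also lay outside the range of all 6 other arrays, as they did in 17.3% of all tested probe sets. Over all tested probe sets the median log2 change was 0.02. An unadjusted p under 0.05, counted for some lists below, was found for 2080 of the 15922.

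Many of the calls cannot be named. The annotation pairs 117 of the called probe sets with 1 gene (45 higher, 72 lower) and 5 with several, and it does not list 143 (73 higher, 70 lower). Counted per named gene, 116 of 8735 genes (1.33%) were called, 45 higher (0.515%) and 71 lower (0.813%), and these per-gene shares are the ones to set beside the gene lists below. In 24 of the lower calls both ago1-27 arrays were within background, and in 6 of the higher calls both Col-0 arrays were. Such a change is written as at least N-fold, where N divides the brighter genotype's geometric mean by that of the highest bacterial signals of the dimmer one's arrays. Leaving out an array changed the number of calls to 93 (Col-0 replicate 1), 81 (Col-0 replicate 2), 337 (ago1-27 replicate 1) or 148 (ago1-27 replicate 2).

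**Figure D1:**
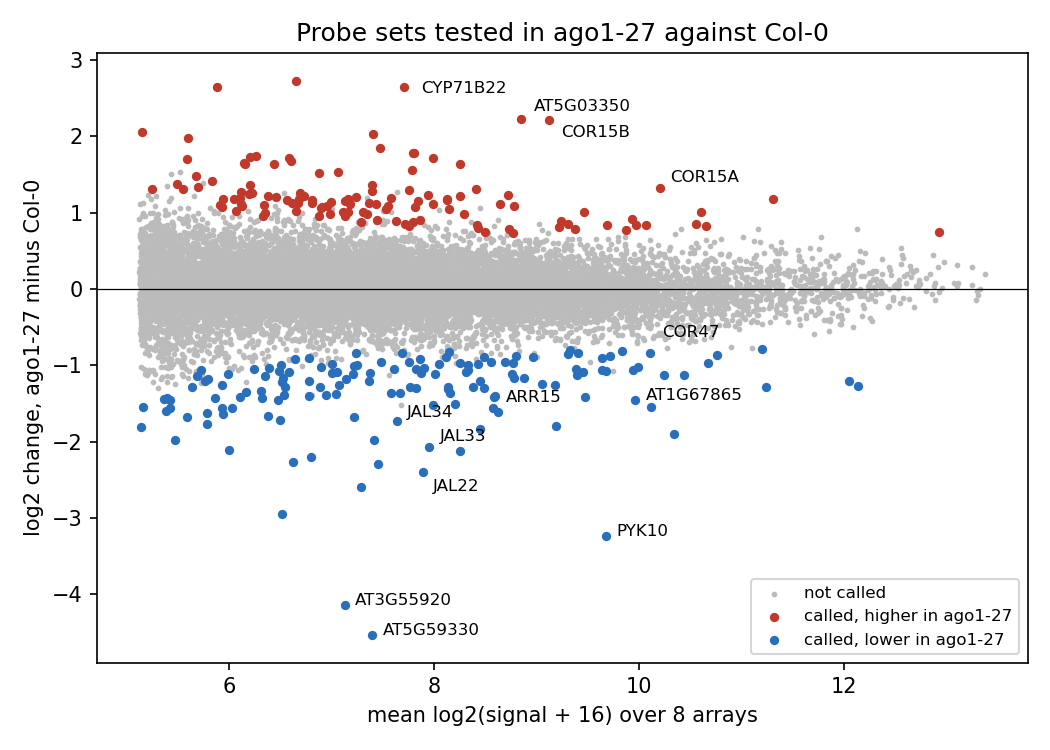
Each point is 1 of the 15922 tested probe sets, with its mean log2(signal + 16) over 8 arrays on the horizontal axis and its log2 change in ago1-27 against Col-0 on the vertical axis; called probe sets are red (120, higher) or blue (145, lower). Called points lie on both sides of 0; those of probe sets within background in a genotype are fitted values and no measured fold. The change needed for a call is larger among dim probe sets.

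Most of the measured genes of the ER body fell in ago1-27. ER bodies are spindle-shaped compartments of the endoplasmic reticulum, found in Brassicaceae, that store beta-glucosidases which release toxic products from glucosides when a cell is damaged. Of 7 tested genes of the ER body and the PYK10 protein complex, of 19 listed, 5 fell and 0 rose in ago1-27, against 0.813% of all named genes lower, and the list's median log2 change was -1.73. This list was drawn up with the earlier finding of falling PYK10 and lectin genes known, so its count is a description of these samples and no independent evidence.

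PYK10 (BGLU23), the main beta-glucosidase of ER bodies in seedlings and roots, gave 1648 and 1678 in the Col-0 arrays and 211 and 123 in the ago1-27 arrays. Its log2 change was -3.24 (standard error of the fit 0.247, adjusted p = 3.96e-06). The se-1 arrays gave 639 and 933 and the se-1 p35S::MIR156 arrays 2337 and 1545. Both ago1-27 arrays were thus the lowest of the 8, the se-1 arrays lay between them and Col-0, and the se-1 p35S::MIR156 arrays spanned those of Col-0.

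The jacalin-related lectins JAL22, JAL33 and JAL34 belong to the protein complex that PYK10 forms when tissue is crushed. JAL22 gave 396 and 342 in Col-0 and 69.4 and 46.0 in ago1-27, a log2 change of -2.40 (standard error 0.199, adjusted p = 1.05e-05). JAL33 gave 321 and 320 in Col-0 and 69.3 and 58.7 in ago1-27, a log2 change of -2.08 (standard error 0.18, adjusted p = 1.61e-05). JAL34, the gene next to JAL33 on its chromosome, gave 263 and 221 in Col-0 and 63.9 and 59.5 in ago1-27, a log2 change of -1.73 (standard error 0.192, adjusted p = 0.000160). For all 3 lectins the ago1-27 arrays were the lowest of the 8.

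NAI2, whose product is needed to form ER bodies, gave 540 and 541 in Col-0 and 193 and 277 in ago1-27, a log2 change of -1.17 (adjusted p = 0.0133). NAI1 and JAL23, also tested, were not called. NAI1, the transcription factor that drives NAI2 and PYK10 expression, gave 66.4 and 52.6 in Col-0 and 53.1 and 63.1 in ago1-27, with overlapping arrays (log2 change -0.02, 95% interval -0.48 to 0.43, adjusted p = 0.980). The lectin gene JAL23 gave 146 and 232 in Col-0 and 230 and 315 in ago1-27 (log2 change 0.51, adjusted p = 0.398). The calls of PYK10, JAL22, JAL33 and JAL34 held without each array in turn; that of NAI2 ended in 3 cases, at an adjusted p of 0.128 (Col-0 replicate 1 left out), 0.126 (Col-0 replicate 2) and 0.0764 (ago1-27 replicate 1).

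The direct test of ago1-27 against se-1, which shares the ago1-27 arrays with the test against Col-0, called 537 probe sets (3.37%). The Col-0 arrays enter it only through the spread estimated over all 8 arrays, and with the compared genotypes alone in the fit it called 263. In that test PYK10 was lower in ago1-27 by a log2 difference of -2.15 (adjusted p = 0.000144), JAL22 by -1.66 (0.000179), JAL33 by -1.65 (9.13e-05) and JAL34 by -1.16 (0.00296). NAI2 had a log2 difference of -0.59 (adjusted p = 0.192). PYK10 is also an abundant root transcript. Of 14 root marker genes listed, 3 had a probe set: beside PYK10 these were the root hair expansins EXPA7, at 1.69 and 4.27 in Col-0 and 3.1 and 4.2 in ago1-27, and EXPA18, at 16.4 and 4.5 in Col-0 and 16.1 and 17 in ago1-27. Both expansin genes were within background on all 4 arrays.

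**Figure D2:**
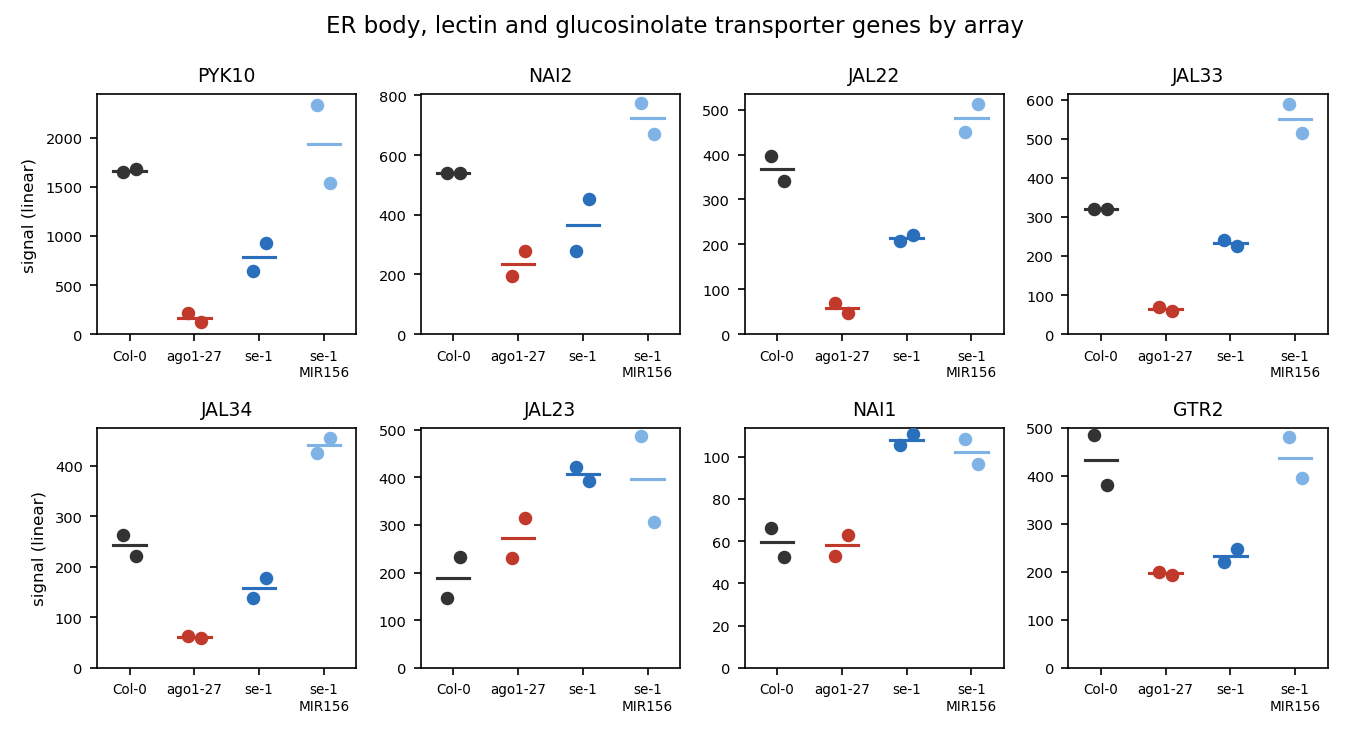
Linear signal of each array (points) and the mean of the 2 arrays (lines) for PYK10, NAI2, 4 jacalin-related lectin genes, NAI1 and the glucosinolate transporter gene GTR2; the group written se-1 MIR156 is se-1 p35S::MIR156. The ago1-27 points lie lowest of the 8 arrays for PYK10, NAI2, JAL22, JAL33, JAL34 and GTR2, and overlap those of Col-0 for JAL23 and NAI1.

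Glucosinolates are the sulfur-containing defence compounds on which such enzymes act. Of 3 tested glucosinolate genes, of 15 listed, 1 fell and the list's median was -0.72. GTR2, an importer that loads glucosinolates into the phloem, gave 486 and 382 in Col-0 and 200 and 194 in ago1-27, a log2 change of -1.07 (standard error 0.188, adjusted p = 0.00799). With Col-0 replicate 1 left out it was no longer called (adjusted p = 0.136). The related importer gene GTR1 gave 315 and 300 in Col-0 and 158 and 206 in ago1-27 (log2 change -0.72, adjusted p = 0.120), and BCAT4, an aminotransferase that starts the methionine-derived pathway, gave 3284 and 4739 against 2556 and 3218 (-0.46, adjusted p = 0.261). In the direct test GTR2 did not pass (ago1-27 minus se-1 -0.23, adjusted p = 0.618), with se-1 arrays at 221 and 247.

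Beta-glucosidases as a family, grouped by gene symbol, had 12 members tested, with a median log2 change of -0.35. Of these 3 fell (25%, against 0.813% of all named genes lower) and 0 rose. Besides PYK10 the falls were those of BGLU46 and BGLU47, of the group known to act on lignin precursor glucosides. BGLU46 gave 174 and 93.8 in Col-0 and 37.1 and 36.1 in ago1-27 (log2 change -1.46, adjusted p = 0.0378). BGLU47 gave 143 and 245 in Col-0 and 82.2 and 74.4 in ago1-27 (-1.11, adjusted p = 0.0493). These are weak calls: that of BGLU46 ended without any 1 of the 4 arrays (adjusted p between 0.0570 and 0.380) and that of BGLU47 without Col-0 replicate 2 or either ago1-27 array (0.0836 to 0.406). BGLU45, of the same group, had a log2 change of -1.05 (adjusted p = 0.126), and the other 8 were between -0.58 and 0.33.

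Cold-induced genes changed in both directions. Of 4 tested cold and abscisic acid response genes, of 18 listed, 2 rose and 1 fell, against 1.33% of all named genes called either way. The list's median was 0.97, and its members were known from the same earlier results.

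COR15A and COR15B encode small proteins that protect chloroplast membranes in the cold, and they lie next to each other on the chromosome. COR15B gave 389 and 292 in Col-0 and 2596 and 1002 in ago1-27, a log2 change of 2.21 (standard error 0.319, adjusted p = 0.00161). Both ago1-27 arrays were above all others, with replicate 1 far above replicate 2. COR15A gave 662 and 910 in Col-0 and 1725 and 2226 in ago1-27, a log2 change of 1.32 (standard error 0.25, adjusted p = 0.0123).

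The dehydrin gene COR47 went the other way, from 1027 and 1049 in Col-0 to 556 and 587 in ago1-27 (log2 change -0.84, standard error 0.156, adjusted p = 0.0107), and its ago1-27 arrays were the lowest of the 8. Another dehydrin gene, LTI30, gave 263 and 195 in Col-0 and 438 and 295 in ago1-27 (log2 change 0.63, adjusted p = 0.215). Against se-1, COR15B was higher in ago1-27 by 1.60 (adjusted p = 0.0108) and LTI30 by 1.12 (0.0103), COR47 had a log2 difference of -1.19 (0.000418), and COR15A one of 0.20 (adjusted p = 0.762; 2044 and 1420 in se-1). The call of COR15B held without each array, with adjusted p up to 0.0459. COR15A was no longer called when Col-0 replicate 1 (0.187) or ago1-27 replicate 2 (0.122) was left out, nor COR47 when either Col-0 array was (0.0969 and 0.116).

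**Figure D3:**
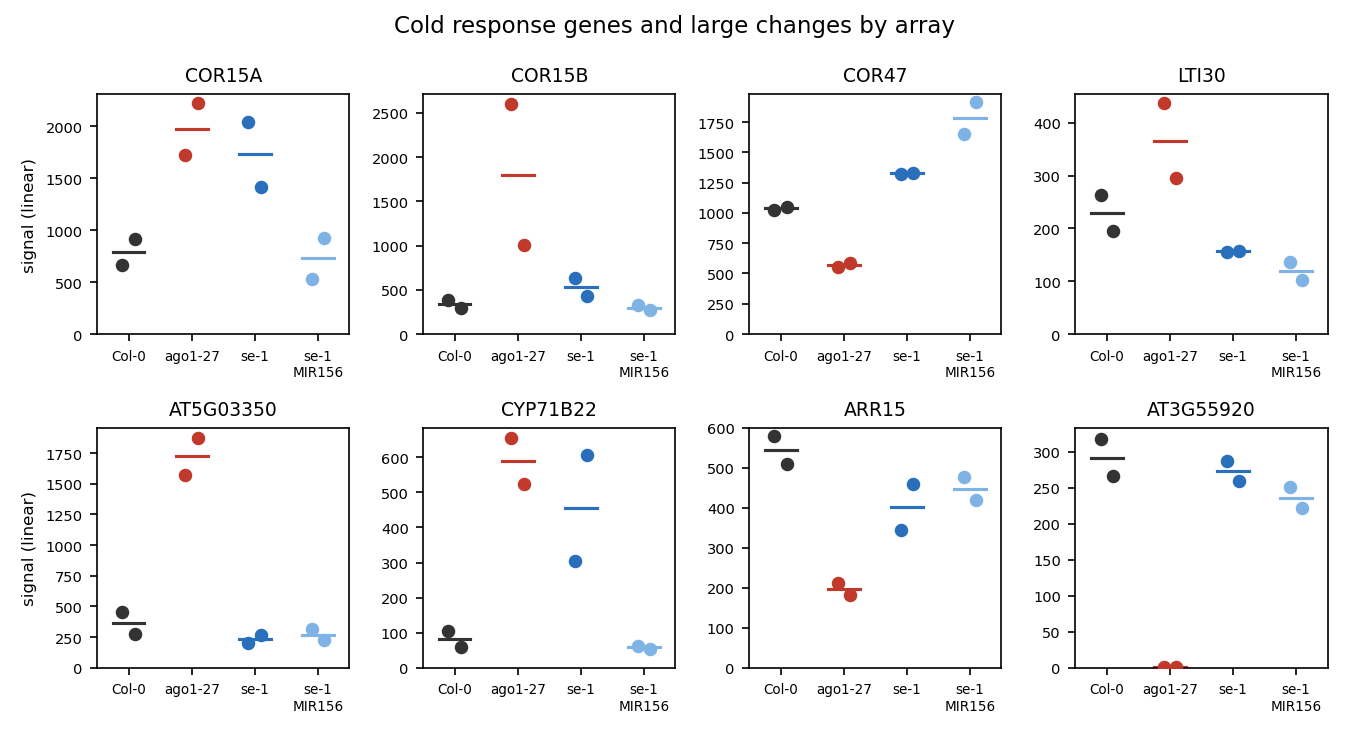
Linear signal of each array (points) and the mean of the 2 arrays (lines) for 4 cold response genes (top) and 4 other genes with large changes (bottom); se-1 MIR156 stands for se-1 p35S::MIR156. COR15A is high in both ago1-27 and se-1, COR15B and AT5G03350 are highest in ago1-27, COR47 and ARR15 are lowest in ago1-27, and AT3G55920 is at 1.42 and 1.23 in ago1-27 against 222 or more on every other array.

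The known targets of small RNAs, which AGO1 acts on directly, were poorly covered by the annotation and gave no call. None of the 11 SPL genes targeted by miR156 had a listed probe set. Of 98 targets of other microRNAs listed, 12 had one and 10 were tested, of which limma called 0, against 1.33% of all named genes. In a list this small, 0 calls does not set the targets apart from all named genes. Of the 10, 3 had an unadjusted p under 0.05, as had 2080 of all 15922 tested probe sets. The list's median log2 change was -0.18. AT1G66720 and AT5G60760, the targets left untested, were dim.

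AGL16, a MADS-box gene targeted by miR824, had the largest positive value of these 10. It gave 148 and 122 in Col-0 and 391 and 173 in ago1-27, a log2 change of 0.88 (95% interval 0.29 to 1.47, adjusted p = 0.155), so ago1-27 replicate 1 stood far above the other arrays. Without ago1-27 replicate 2 its log2 change was 1.43, which rests on replicate 1 alone in ago1-27. It was 0.32 without ago1-27 replicate 1, 1.00 without Col-0 replicate 1 and 0.76 without Col-0 replicate 2. SNZ, an AP2-type flowering repressor gene targeted by miR172, gave 24.6 and 48.7 in Col-0 and 9.59 and 0.963 in ago1-27, where it was within background (fitted log2 change -1.30, interval -2.11 to -0.49, adjusted p = 0.119). Its close relative SMZ had a log2 change of -0.18 (adjusted p = 0.826).

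PHV, a leaf polarity gene targeted by miR165 and miR166, gave 322 and 425 in Col-0 and 365 and 362 in ago1-27 (log2 change -0.03, interval -0.50 to 0.44). The copper-linked targets gave -0.36 for ARPN (miR408; 1503 and 1357 against 1118 and 1108), 0.23 for CCS and -0.22 for AT3G15640 (both miR398). The ATP sulfurylase genes APS3 and APS4 (miR395) gave -0.32 and 0.34, and the F-box gene LCR (miR394) gave -0.19. For these 7 genes no 95% interval of the fit reached above 0.85 on the log2 scale, short of a 2-fold rise. These intervals rest on 2 arrays a genotype and do not settle whether such a rise occurred. The ago1-27 arrays differed most for APS4, with a log2 change of 0.70 without replicate 1 and -0.03 without replicate 2.

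The ta-siRNA targets are transcripts cut with trans-acting small RNAs, mostly of pentatricopeptide repeat genes, and of 26 listed 10 had a probe set and 7 were tested. Limma called 0 of the 7, 2 had an unadjusted p under 0.05, 6 values were positive and the median was 0.14. AT1G63080 gave 62.0 and 33.4 in Col-0 and 98.6 and 97.2 in ago1-27 (log2 change 0.88, adjusted p = 0.0988), and AT1G62860 gave 55.6 and 56.2 against 96.4 and 78.7 (0.52, adjusted p = 0.308). Of the small RNA machinery, 5 of 36 listed genes were tested (DDL, TGH, SE, AGO7 and SQN). Limma called 0 of these 5, 0 had an unadjusted p under 0.05, and the values lay between 0.13 and 0.37. The ta-siRNA and machinery lists are too small for 0 calls to differ from the 1.33% of all named genes called.

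**Figure D4:**
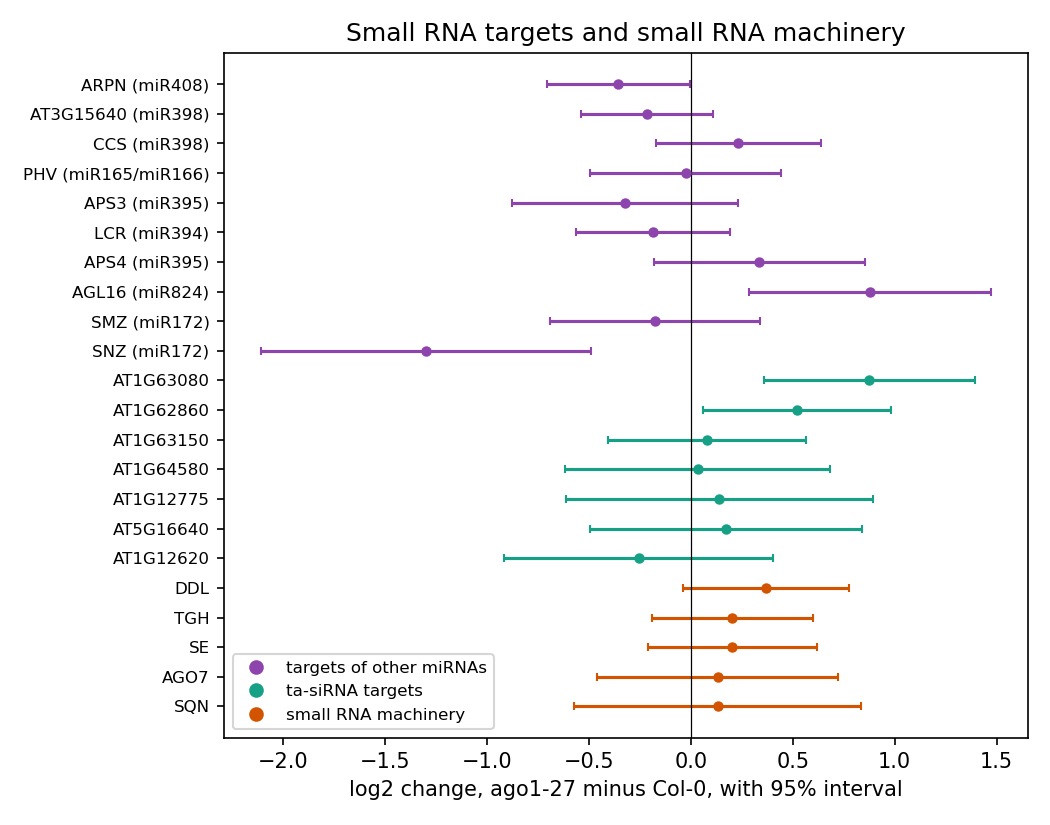
Log2 change in ago1-27 against Col-0 (points) with its 95% interval from the fit (lines) for the 10 tested microRNA targets, 7 ta-siRNA targets and 5 small RNA machinery genes. AGL16, AT1G63080 and AT1G62860 have intervals above 0 and SNZ and ARPN intervals below 0, and limma called 0 of the 22 after adjustment over all probe sets.

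Of the genes that rose, CYP71B22, a cytochrome P450 gene, gave 105 and 59.7 in Col-0 and 654 and 523 in ago1-27, a log2 change of 2.65 (standard error 0.283, adjusted p = 0.000114). The se-1 arrays, at 304 and 607, overlapped those of ago1-27 (ago1-27 minus se-1 0.43, adjusted p = 0.509). AT5G03350 gave 458 and 276 in Col-0 and 1573 and 1873 in ago1-27, a log2 change of 2.22 (adjusted p = 0.000114). Here se-1, at 206 and 271, lay below ago1-27 with a log2 difference of 2.78 (adjusted p = 5.90e-06). The pseudogene AT1G43590 gave 11.3 and 21.5 in Col-0, within background, and 198 and 171 in ago1-27, at least 8.78-fold higher.

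Further rises were those of AT3G28500, AT1G07440, AT1G19960 and AT5G62210. AT3G28500 gave 239 and 190 in Col-0 and 653 and 739 in ago1-27 (log2 change 1.63, adjusted p = 0.000311), and AT1G07440 gave 86.4 and 70.8 against 253 and 258 (1.53, adjusted p = 0.00129). For AT3G28500 the se-1 arrays, at 418 and 445, also lay above Col-0 (se-1 minus Col-0 0.97, adjusted p = 0.0211). Its direct test did not pass (ago1-27 minus se-1 0.67, adjusted p = 0.0779), while that of AT1G07440 did (0.98, adjusted p = 0.0200). In AT1G19960 the se-1 arrays lay below and the ago1-27 arrays above Col-0: it gave 464 and 576 in Col-0, 1279 and 1342 in ago1-27 and 177 and 111 in se-1 (ago1-27 minus Col-0 1.31, adjusted p = 0.0133; ago1-27 minus se-1 3.08, adjusted p = 4.89e-06). AT5G62210 gave 91.5 and 160 in Col-0 and 382 and 546 in ago1-27 (1.78, adjusted p = 0.00324).

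Among the risen genes were some known from chloroplasts or from defence. PIFI, a chloroplast protein linked to the NDH complex that returns electrons to plastoquinone, gave 225 and 199 in Col-0 and 463 and 569 in ago1-27 (log2 change 1.22, adjusted p = 0.00267). The chloroplast-encoded NDH subunit gene ndhG gave 50.2 and 16.1 against 121 and 133 (1.63, adjusted p = 0.0123), with 1 Col-0 array within background. It was the only 1 of 67 tested chloroplast-encoded genes to rise, and was not called with no filter on dim probe sets (limma adjusted p = 0.110). Its call also ended without Col-0 replicate 2 or ago1-27 replicate 2, and that of PIFI without Col-0 replicate 2. UGT84A3, a glucosyltransferase gene of hydroxycinnamic acids, was within background in Col-0 at 15.7 and 14.3 and gave 70.0 and 52.8 in ago1-27, at least 2.90-fold higher. Its call ended whichever array was left out.

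WRKY53, a transcription factor of leaf senescence and defence, gave 27.9 and 39.3 in Col-0 and 69.3 and 133 in ago1-27 (1.19, adjusted p = 0.0447). The thionin gene THI2.2, of small antimicrobial peptides, gave 251 and 209 against 456 and 552 (1.08, adjusted p = 0.00690), and the se-1 arrays, at 552 and 478, overlapped ago1-27. The calcium-sensor binding IQD genes iqd33 and iqd21 rose by 1.42 and 0.75 on the log2 scale (adjusted p = 0.0233 and 0.0372). For iqd33, 1 Col-0 array was within background. The call of iqd21 ended whichever array was left out, and that of iqd33 without either Col-0 array or ago1-27 replicate 1. That of WRKY53 ended without either Col-0 array or ago1-27 replicate 2, and that of THI2.2 without replicate 2 of either genotype.

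The other members of the 20 largest named rises were AT2G43590 (at least 2.54-fold), hemb2 (at least 2.13-fold) and AT3G16220, AT5G44580, AT4G38550 and AT1G33811, with log2 changes from 1.18 to 1.38. For AT3G16220, 1 Col-0 array was within background. For AT2G43590 the se-1 arrays, at 76.8 and 60.1, overlapped those of ago1-27, at 61.2 and 46.4 (ago1-27 minus se-1 -0.28, adjusted p = 0.680). The probe set 267460_at, which has no listed gene, gave 42.8 and 46.8 in Col-0 and 364 and 409 in ago1-27, a log2 change of 2.73 (adjusted p = 3.86e-06). Another, 265837_at, gave 30.02 and 4.89 against 122 and 105 (2.06, adjusted p = 0.00801), with 1 Col-0 array within background.

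Of the 20 largest named rises, 6 kept their call without each array in turn: CYP71B22, AT1G43590, AT5G03350, COR15B, AT3G28500 and AT1G07440. Leaving out Col-0 replicate 1 ended 11 of the 20 calls (adjusted p 0.0610 to 0.316) and leaving out Col-0 replicate 2 also 11 (0.0591 to 0.287). Leaving out ago1-27 replicate 1 ended 4 (0.0739 to 0.112) and leaving out its replicate 2 ended 11 (0.0516 to 0.345). The call of 265837_at ended without Col-0 replicate 2 (0.120).

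Among the falls, the deepest were those of AT5G59330 and AT3G55920, both to background. AT5G59330 gave 482 and 430 in Col-0 and 3.82 and 4.99 in ago1-27, at least 16.7-fold lower (adjusted p = 1.50e-08). AT3G55920 gave 317 and 266 in Col-0 and 1.42 and 1.23 in ago1-27, at least 10.6-fold lower (adjusted p = 1.42e-08), while the other 4 arrays lay between 222 and 287. For both genes the 2 ago1-27 arrays stood apart from all 6 others, with se-1 at 190 and 228 for AT5G59330 and at 287 and 260 for AT3G55920.

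AT5G40020 fell from 86.8 and 72.2 to 4.45 and 7.98, within background and at least 2.90-fold lower (adjusted p = 0.000311). AT4G11190 fell from 169 and 120 to 24.4 and 13.4 (log2 change -2.20, adjusted p = 0.000114), and AT3G02910 from 165 and 180 to 54.6 and 16.2 (-1.98, adjusted p = 0.00129). For AT4G11190 and AT3G02910, 1 ago1-27 array each was within background. AT1G67865, a bright transcript, fell from 1369 and 1385 to 521 and 461 (-1.46, adjusted p = 0.000114).

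ARR15, a response regulator gene induced by cytokinin, fell from 580 and 509 in Col-0 to 211 and 181 in ago1-27 (log2 change -1.40, standard error 0.19, adjusted p = 0.00105). The call held without each array in turn, and against se-1, at 346 and 460, the log2 difference was -0.97 (adjusted p = 0.00933). RR16, the other cytokinin response gene tested, had a log2 change of 0.30 (adjusted p = 0.638).

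Cell wall genes were among the falls. The expansin-like genes EXLA3 and EXLA1, of proteins related to those that loosen cell walls, lie near each other with 1 annotated gene between them. EXLA3 gave 56.4 and 65.9 in Col-0 and 1.35 and 23.1 in ago1-27, at least 2.23-fold lower (adjusted p = 0.0233). EXLA1 gave 78.0 and 160 against 19.6 and 50.4 (log2 change -1.40, adjusted p = 0.0324), with 1 ago1-27 array within background. EXLA3 and EXLA1 were 2 of 13 tested expansins and expansin-like genes (15.4%, against 0.813% of all named genes lower), and 0 rose. The median of the family was -0.21.

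GH9B13, a glycosyl hydrolase of the endoglucanase family, fell from 1488 and 1539 to 1007 and 636 (-0.90, adjusted p = 0.0372), the only call of 7 in its family. Of 17 tested TBL genes, which acetylate wall polymers, TBL36 fell from 1301 and 1458 to 899 and 609 (-0.88, adjusted p = 0.0378) and TBL45 rose from 530 and 524 to 1049 and 829 (0.81, adjusted p = 0.0366). For GH9B13 and TBL36 the se-1 arrays overlapped those of ago1-27.

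Of the enzymes, CYP78A9, a cytochrome P450 gene that affects organ growth, fell from 111 and 92.8 to 28.6 and 45.3 (-1.17, adjusted p = 0.0142). The carboxypeptidase-like gene scpl31 gave 309 and 311 in Col-0, 171 and 153 in ago1-27 and 743 and 1110 in se-1 (ago1-27 minus Col-0 -0.87, adjusted p = 0.0323; ago1-27 minus se-1 -2.38, adjusted p = 4.89e-06). UBC16, a ubiquitin-conjugating enzyme gene, fell from 110 and 77.9 to 41.9 and 35.6 (-0.99, adjusted p = 0.0405). The chloroplast gene psbC, of a photosystem core protein, gave 873 and 1185 in Col-0 and 630 and 523 in ago1-27 (-0.81, adjusted p = 0.0331).

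The other 8 of the 20 largest named falls were those of PR-1-LIKE, named for a pathogenesis-related protein, and AT1G73040, AT4G36430, AT1G74460, AT3G20370, AT3G05170, AT1G62510 and AT4G38080. Their ago1-27 signals lay between 0.614 and 25.1, and except for 1 array of AT4G36430 all were within background. Where both arrays were, the fall was at least 1.27-fold (AT3G05170) to at least 3.17-fold (AT3G20370). Of the unlisted probe sets, 254818_at gave 243 and 157 in Col-0 and 26.01 and 2.00 in ago1-27 (log2 change -2.95, adjusted p = 0.000139), and 252607_at gave 196 and 327 against 27.2 and 30.2 (-2.59, adjusted p = 1.85e-05). For 254818_at and 252607_at, 1 ago1-27 array each was within background.

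Of the 20 largest named falls, 10 kept their call without each array in turn: AT5G59330, AT3G55920, PYK10, JAL22, AT4G11190, AT5G40020, JAL33, AT3G02910, JAL34 and AT1G67865. Leaving out either Col-0 array ended 9 calls (adjusted p 0.0787 to 0.380 for replicate 1 and 0.0570 to 0.223 for replicate 2), and leaving out an ago1-27 array ended 5 (replicate 1, 0.0764 to 0.0960) or 4 (replicate 2, 0.0617 to 0.185). Of the 14 genes that the naming rule took only as members of a list or family (at most 4 a list, so without NAI2), ARR15 was the only one to keep its call throughout; leaving out replicate 1 or 2 of Col-0 ended 9 or 12 of these calls, and of ago1-27 7 or 8 (adjusted p 0.0526 to 0.406).

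Several groups tied to known ago1 traits gave 0 calls in limma, where 1.33% of all named genes were called. With so few genes tested in each, 0 calls does not show a lack of change. Counts at an unadjusted p under 0.05, here and in the groups below, stand beside 2080 of all 15922 tested probe sets. Of 9 tested flowering genes, 5 had an unadjusted p under 0.05: AGL16 and SNZ, above, and GI (log2 change 0.51, adjusted p = 0.245), AGL24 (-0.62, adjusted p = 0.206) and AGL42 (0.91, adjusted p = 0.0816). AGL42, a MADS-box promoter of flowering, gave 67.2 and 60.1 in Col-0 and 173 and 102 in ago1-27. With 1 array left out its log2 change lay between 0.57 (ago1-27 replicate 1) and 1.24 (ago1-27 replicate 2). The leaf polarity genes PHV, YAB3 and YAB5 had log2 changes of -0.03, 0.44 and -0.18, with 1 unadjusted p under 0.05.

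Of 6 tested flavonoid and anthocyanin genes 5 had negative values, with a median of -0.47 and 3 at an unadjusted p under 0.05. DFR, of the reductase step to anthocyanins, gave 771 and 911 in Col-0 and 342 and 526 in ago1-27 (-0.96, limma adjusted p = 0.0592). It was called with the replicate number as a block (0.0451) and with only Col-0 and ago1-27 in the fit (0.0389). Under the other settings with no array left out it was not called, at 0.0582 (robust eBayes) to 0.195 (no filter). With 1 array left out its log2 change lay between -0.66 (ago1-27 replicate 1) and -1.26 (ago1-27 replicate 2). The exception was UGT78D1, a flavonol glycosyltransferase gene, at 0.36 (adjusted p = 0.448).

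The 4 tested nuclear photosynthesis genes LHCB4.1, LHCB4.2, RCA and PRK all had positive values, from 0.19 to 0.69 with a median of 0.51, and 3 had an unadjusted p under 0.05. RCA, which keeps Rubisco active, gave 1750 and 2008 in Col-0 and 2418 and 3509 in ago1-27 (0.63, adjusted p = 0.113), and LHCB4.2 gave 1788 and 1988 against 2297 and 4025 (0.69, adjusted p = 0.145). Without ago1-27 replicate 1, the array with the lower value of each, the log2 changes of RCA and LHCB4.2 were 0.90 and 1.09. Without ago1-27 replicate 2 they were 0.36 and 0.28. Of 67 tested chloroplast-encoded genes, ndhG rose and psbC fell (2.99%, against 1.33% of all named genes called), and the median was -0.06.

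The smaller lists gave 1 further call, AT5G03350, which is 1 of 2 tested salicylic acid and defence genes. Limma called 0 of 2 auxin genes, 0 of 4 copper and sulfur genes, 0 of 1 jasmonate gene and 0 of 1 clock gene, of which 2, 1, 0 and 1 had an unadjusted p under 0.05. These lists are too small for their counts to differ from the 1.33% of all named genes called. GH3.3, an auxin-induced gene of auxin conjugation, gave 255 and 262 in Col-0 and 401 and 548 in ago1-27 (0.82, adjusted p = 0.0570). Of the markers of other tissues, TRY of the epidermis gave 27.7 and 24.9 against 30.6 and 52.7 (0.42, adjusted p = 0.607), and 0 of the listed vascular, flower and seed markers had a probe set paired with 1 gene.

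Other families, grouped by gene symbol, had 0 to 2 calls each, beside 1.33% of all named genes called. The share was 20% for WRKY factors, 18.2% for cytochrome P450 enzymes and 15.4% for IQD genes, each from 1 or 2 calls. It was 1.22% for pseudogenes, near that of all named genes. Of 25 tested UDP-glycosyltransferases 1 rose (UGT84A3), of 11 cytochrome P450 enzymes 1 rose and 1 fell, of 5 WRKY factors 1 rose, of 14 serine carboxypeptidase-like genes 1 fell, of 13 IQD genes 2 rose and of 82 tested pseudogenes, of 989 with a probe set, 1 rose. Limma called 0 of 9 glutathione S-transferases, 10 MADS-box factors, 11 bZIP factors, 7 SWEET sugar transporters and 6 RALF-like peptides, of which 3, 3, 2, 0 and 1 had an unadjusted p under 0.05.

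**Figure D5:**
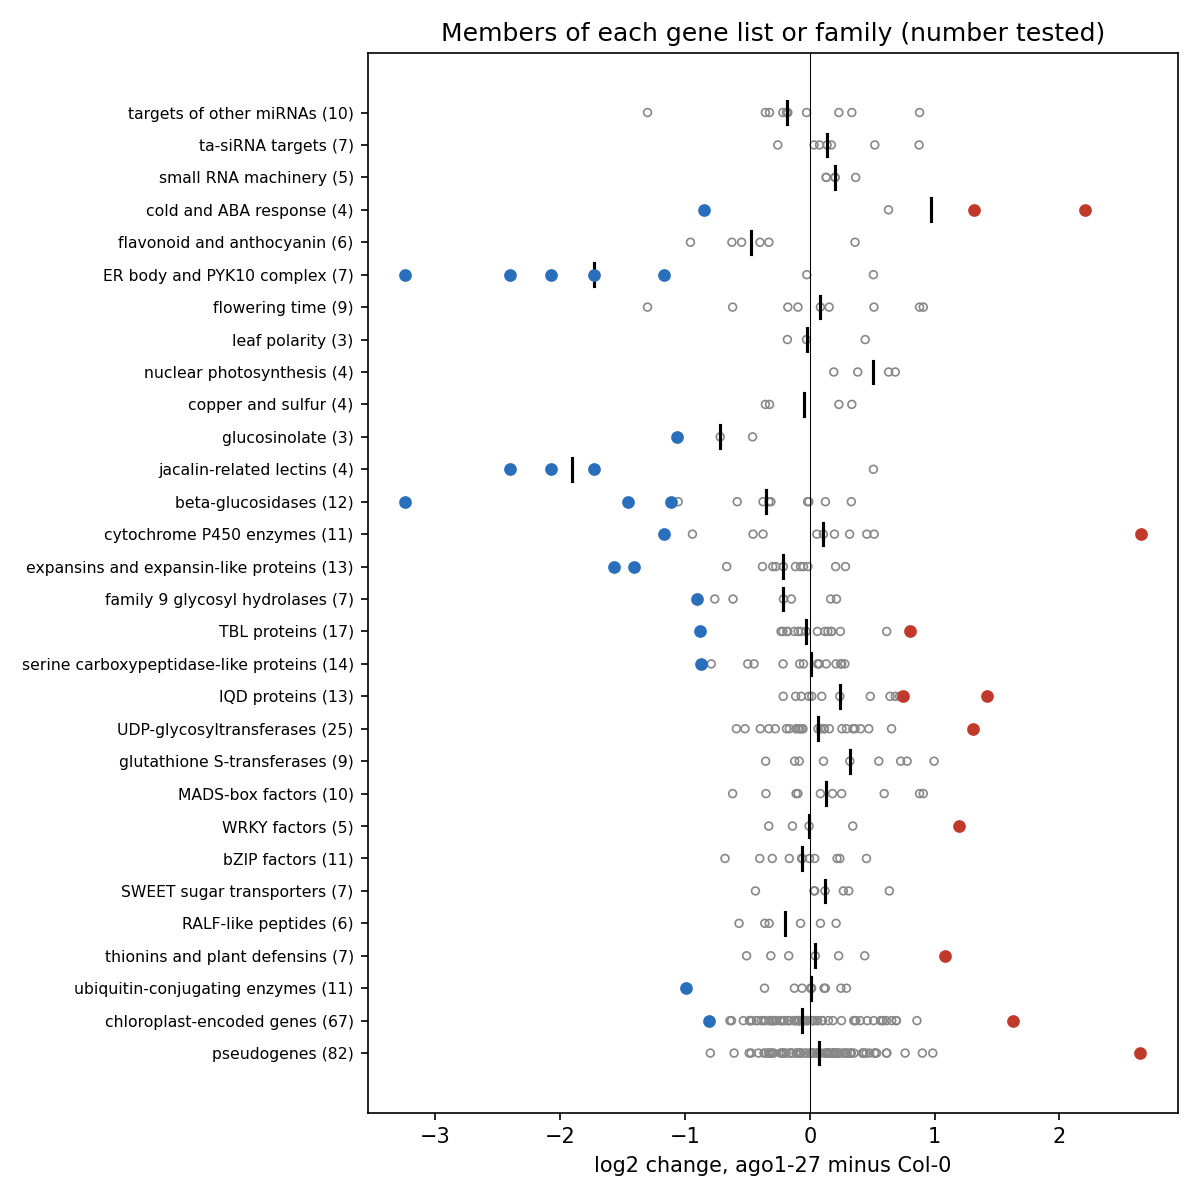
Log2 change in ago1-27 against Col-0 of each tested member of the 30 lists and families with at least 3 tested members (number tested in brackets); filled points were called (red higher, blue lower), open points were not, and the black bar is the median. The ER body list has most of its members far to the left. So has the lectin family, but its 4 members are all on that list, so both show the same lectins. MicroRNA targets, flowering and leaf polarity genes have open points only.

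Outside the naming rule were 22 called genes that rose, by 0.75 to 1.17 on the log2 scale, and 41 that fell, NAI2 among them, with log2 changes from -1.42 to -0.80. Those with a gene symbol were chosen for naming after their values were seen. HPR, the hydroxypyruvate reductase of photorespiration, gave 748 and 870 in Col-0 and 1416 and 1490 in ago1-27 (log2 change 0.84, adjusted p = 0.0183), and LrgB, a plastid envelope transporter of the same pathway, gave 105 and 133 against 238 and 320 (1.12, adjusted p = 0.00914). CcdA, a thylakoid protein for cytochrome assembly, rose by 0.83 (adjusted p = 0.0238), the Aurora kinase gene AUR3 by 1.05 (0.0323) and the putative chitinase gene CHI by 1.17 (0.0296).

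Among the falls were SP1L2, a SPIRAL1-like gene of a family that acts on microtubules (-1.18, adjusted p = 0.0482), LSH9, of the ALOG family that acts in organ boundaries (-0.98, adjusted p = 0.0242), and AT5G48570, also named ROF2, an FKBP immunophilin gene (-1.07, adjusted p = 0.0406). For AT5G48570, 1 ago1-27 array was within background. The brightest called transcripts were AT4G22490, which rose from 7262 and 5869 to 10532 and 11409 (0.75, adjusted p = 0.0123), and AT1G62480, which fell from 5755 and 4159 to 2212 and 2012 (-1.21, adjusted p = 0.000980).

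Of these 63 calls, 4 held without each array in turn, AT1G62480 among them. Leaving out Col-0 replicate 1 ended 51 of the 63 (adjusted p 0.0542 to 0.447) and leaving out its replicate 2 also 51 (0.0516 to 0.328). Leaving out ago1-27 replicate 1 ended 32 (0.0523 to 0.169) and its replicate 2 ended 41 (0.0518 to 0.288). The calls of CHI and LSH9 ended whichever array was left out. HPR, AUR3 and AT5G48570 stayed called only without ago1-27 replicate 1, CcdA only without ago1-27 replicate 2 and SP1L2 only without Col-0 replicate 2. LrgB was no longer called when Col-0 replicate 1 (0.136) or ago1-27 replicate 2 (0.0899) was left out, nor AT4G22490 when Col-0 replicate 2 (0.170) or ago1-27 replicate 2 (0.0637) was.

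Of 114 called genes that could be placed on the TAIR10.1 gene order, 6 pairs lay with at most 3 annotated genes between them, and in all 6 both genes moved the same way. These were COR15B with COR15A and JAL33 with JAL34, which are direct neighbours, EXLA3 with EXLA1, AT2G19970 with PR-1-LIKE, CHI with AT2G43590, and AT1G62480 with AT1G62510. Neighbouring copies of a gene can be similar enough for 1 transcript to give signal on both probe sets, and the part of this in the pairs was not tested.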

How the data were processed

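Each of the 8 samples (2 for each of 4 genotypes, grouped by their labels) was measured on 1 Affymetrix ATH1 array. The deposited values are linear intensities, 1 per probe set, which the authors made with GCOS, per the submitters' processing notes; the algorithm and version are not given in the sources used here. Arrays share the same 2% trimmed mean, so they had been scaled before deposit.

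Control probe sets were removed, which left 22746. The 30% with the lowest mean over all arrays were left out, and 15922 were tested on log2(intensity + 16), so that a fold change of a dim gene is understated. Limma 3.58.1 in R 4.3.3 fitted 1 mean per genotype to all 8 arrays, with eBayes and an intensity trend (4 residual and 11.269 prior degrees of freedom), and p-values were adjusted by the Benjamini-Hochberg method over all tested probe sets, with calls at 0.05. Limma's adjusted p is meant wherever an adjusted p is given. The number of arrays limits the precision.

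Genes were named through the platform annotation, updated with the gene table of assembly TAIR10.1. It pairs 13513 probe sets with 1 gene and 503 with several, and 8730 are unlisted. Genes named by rule were the 20 largest called rises and falls with 1 gene, up to 4 called members of each list or family, and 2 unlisted probe sets in each direction; members not called, and other genes, were named after their values were seen. The members and lists were chosen with earlier results of these data known, and the families were redefined by gene symbol after values had been seen. The labels give same-numbered replicates only a shared number. Their deviations correlated at 0.10 between Col-0 and ago1-27, and at -0.21 to 0.11 over the 6 genotype pairs. Replicate 2 had the higher background in each genotype. It was 25.6 against 17.1 in Col-0 and 34.1 against 22.0 in ago1-27. In se-1 it was 30.2 against 18.0, and in se-1 p35S::MIR156 18.3 against 14.2. Whether the number marks a batch is not known. Alternatives were other pseudocounts, filters, normalization and variance settings, a fit of the compared genotypes only, a replicate block, and each array left out.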

Additional observations from a re-analysis of the deposited data

How the results depend on the processing

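The 265 calls of ago1-27 against Col-0 became 98 with no filter on dim probe sets, and 81 to 337 with 1 array left out. The split of higher against lower calls was 120 to 145, and 50 to 98 without ago1-27 replicate 2. The 537 calls of ago1-27 against se-1 became 249 with no filter, 263 with only the compared genotypes in the fit, and 257 to 538 with 1 array left out. Under the other settings tried the counts stayed within 1.5 times. With the replicate number as a block the counts were 271 and 518; the numbers were not shown to pair the samples. No called value changed direction. Of the 58 called probe sets named by the rule, 20 kept their call without each of the 4 arrays, as did 4 of the 63 called genes outside it. Calls ended for 29 of the 58 with no filter, for 15 with no variance trend, for 11 with only the compared genotypes, for 5 with a pseudocount of 1 and for 4 with a pseudocount of 64. Where the lowest 50% of probe sets were left out, 1 call ended and 25 probe sets were not tested. Quantile normalization, robust eBayes and the block ended 0 calls of the 58, and 2, 0 and 5 of the 63; no filter ended 51 of the 63. The causes were not tested. Probe sets within background on an array have only a bound there, and 2 arrays a genotype leave small changes undetected.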
